A study of Mus musculus with 8 samples.

Results

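*S100a8* and *S100a9* encode the subunits of calprotectin. They were chosen by name, as the S100 genes in the list of genes of day 7 that differed between colonic intestinal epithelial cells (IECs) of *Efhd2*f/f Vil1cre/+ and *Efhd2*f/f mice. They were 2 of the 128 genes listed on day 7, and neither was among the 309 genes listed on day 0. A gene was listed only if the study's own test of the same libraries called it changed between the genotypes, so the difference between the genotypes in the level of *S100a8* or *S100a9* is given as a description, with no test. Absence from the table of day 0 says that the genes did not pass that threshold there, and gives no level for them, so no value of day 7 could be set against one before DSS.

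The mice of all groups carried floxed alleles with loxP sites at exon 2 of *Efhd2*, a gene for a calcium-binding protein. *Efhd2*f/f Vil1cre/+ mice carried in addition a Cre recombinase driven by the promoter of *Vil1*, which is active in the epithelium of the intestine, while *Efhd2*f/f mice had no Cre. IECs of these genotypes are called *Efhd2*-deficient and control below. Mice were 8 to 10 weeks old, of both sexes, and the strain background of these lines was not given in the sources used here. On day 0 they had received no dextran sulfate sodium (DSS), a polymer that injures the colonic epithelium when given in drinking water. On day 7 they had received DSS for 6 days, followed by normal water. Each of the 4 groups had 2 libraries, which the tables number. On day 7, libraries 65 and 71 were of *Efhd2*-deficient IECs and libraries 67 and 68 of control IECs. IECs were the cells shaken off the opened colon in 2 mM EDTA and passed through a 100 µm strainer, with no sorting step described, so the fraction can hold other cells of the inflamed mucosa.

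The values were normalized counts for the listed genes only, so the depth of the libraries is unknown. Nothing in the labels says that the 2 libraries of a group came from separate mice, and the spread between them may be technical. *Efhd2* itself, the targeted gene, was listed on day 0, at 556 and 713 normalized counts in *Efhd2*-deficient IECs and 2663 and 2686 in control IECs. It was not listed on day 7, so the genotype labels of the 4 libraries described here were not checked in this way. None of the 18 epithelial markers examined was listed on day 7, and the labelled cell type could not be checked against them either.

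Calprotectin is a heterodimer of 2 small EF-hand proteins of the S100 family, S100A8 and S100A9, which bind calcium and, as a complex, zinc and manganese. It makes up much of the protein of the neutrophil cytosol, and by withholding metals from microbes it limits their growth. Released calprotectin can engage TLR4 and RAGE, and its amount in stool is used in the clinic as a measure of intestinal inflammation. Neutrophils and monocytes are its main sources, and epithelial cells can also be induced to express it.

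In GRCm38, *S100a8* (ENSMUSG00000056054) lies on chromosome 3 from 90668978 to 90670035 on the plus strand, and *S100a9* (ENSMUSG00000056071) from 90692632 to 90695721 on the minus strand. The genes therefore point towards each other, 22596 bp apart, with 0 annotated genes between them in GENCODE mouse release 21. Each coding transcript has 3 exons, of which the first is untranslated and the second holds the start of the coding sequence. The coding sequences span 267 bp in *S100a8* and 339 bp in *S100a9* without the stop codon, for 89 and 113 residues. Within 1 Mb of the pair the annotation holds 71 genes, 42 of them protein-coding and 12 of them S100 genes. *S100a8* and *S100a9* were the only 2 of these 71 listed on day 7, and 0 were listed on day 0. Of all 17 S100 genes in the annotation, 14 on chromosome 3, the other 15 were listed on neither day.

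**Figure D1:**
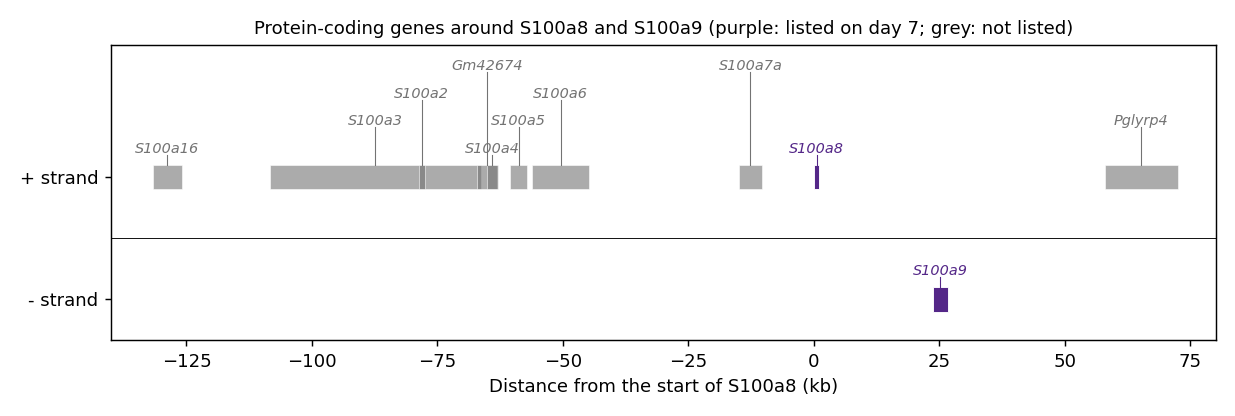
Protein-coding genes around the pair, drawn to scale from GENCODE mouse release 21, with the distance from the annotated start of *S100a8* in kb on the horizontal axis and the strand on the vertical axis. The 2 purple genes, *S100a8* and *S100a9*, were listed on day 7, and the grey genes were not.

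The upstream sequences are shown because both genes were high in the same libraries, to set their starts side by side. They are from RefSeq on GRCm38.p6 and run 5′ to 3′ on the strand of the gene. Capitals mark matches, on either strand, to 6 motifs searched for in the window from 250 bases before to 50 bases after each RefSeq start. Positions are counted from 0 at the first base of the RefSeq transcript. Upstream of *S100a8* at chr3:90668821-90668977, plus strand, the capitals mark a PU.1 motif and a C/EBP motif, named after transcription factors of the myeloid lineage. In *S100a9* at chr3:90695722-90695971, minus strand, they mark C/EBP motifs and an NF-kB motif. The segments around the TATA box are at chr3:90669029-90669058 for *S100a8* and chr3:90695704-90695733 for *S100a9*.
S100a8, upstream: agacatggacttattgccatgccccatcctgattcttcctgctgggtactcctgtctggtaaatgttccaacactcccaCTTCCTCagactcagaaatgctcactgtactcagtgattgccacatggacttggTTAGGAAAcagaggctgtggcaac
S100a8, around the TATA box: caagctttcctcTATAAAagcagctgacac
S100a9, upstream: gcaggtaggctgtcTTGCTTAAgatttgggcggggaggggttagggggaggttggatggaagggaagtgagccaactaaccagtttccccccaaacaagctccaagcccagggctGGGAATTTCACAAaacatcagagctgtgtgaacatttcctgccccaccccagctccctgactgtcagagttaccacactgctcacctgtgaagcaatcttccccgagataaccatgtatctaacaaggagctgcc
S100a9, around the TATA box: caaggagctgccTATAAAtactgggcttac

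Both windows held TATAAA, which was found in 13.6% of the 32851 windows of the same length. It lay at -30 in *S100a8*. In *S100a9* it began at 0, on the annotated first base itself. GENCODE places the start of *S100a8* 93 bases before that of RefSeq, so the TATA box of *S100a8* lies within the first exon of that model. The C/EBP motif TTNNGNAA was in both windows and in 40.7% of all windows, at -117 in *S100a8* and at -236 and -130 in *S100a9*. The PU.1 motif GAGGAAG was in the window of *S100a8*, at -171 on the reverse strand, and in 13.6% of all windows. The NF-kB motif GGGANTTTC was in the window of *S100a9*, at -135, and in 1.11% of all windows, and it overlaps the second C/EBP match of that gene. The AP-1 motif TGANTCA, found in 7.81% of windows, and the STAT motif TTCNNNGAA, found in 8.30%, matched neither window. These matches describe letters in the windows, and binding was not measured.

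Both calprotectin genes had higher values in each *Efhd2*-deficient library than in each control library on day 7. *S100a8* was at 4516 and 15016 normalized counts in *Efhd2*-deficient libraries 65 and 71 and at 1038 and 1752 in control libraries 67 and 68. The means were 9766 ± 7424 and 1395 ± 505 normalized counts (SD, n = 2), a ratio of 7.0. The groups did not overlap, but library 71 held 3.32 times as much as library 65, and the lower *Efhd2*-deficient library exceeded the higher control library 2.58-fold. *S100a9* was at 10154 and 21631 normalized counts in libraries 65 and 71 and at 2125 and 2904 in libraries 67 and 68. Its means were 15893 ± 8116 and 2515 ± 551 normalized counts (SD, n = 2), a ratio of 6.32. The groups of *S100a9* were farther apart, with 3.50-fold between the nearest libraries, and library 71 held 2.13 times as much as library 65. In both genes library 71 was the highest and library 67 the lowest.

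On the log2(normalized count + 1) scale the difference between the genotypes was 2.61 for *S100a8* (SE 0.95 over libraries) and 2.58 for *S100a9* (SE 0.59). The same lack of overlap was seen in 116 of the 128 listed genes (90.6%), which had been selected for a difference between these libraries. By limma's Benjamini-Hochberg adjusted p, taken over 128 genes, 99 were called higher in *Efhd2*-deficient IECs (77.3%) and 10 lower (7.81%). These calls repeat the comparison by which the genes were listed and are given below only to describe gene groups. With any 1 of the 4 libraries left out limma called 0 genes in either direction, in fits where the lone library of a genotype is assumed to vary like the other genotype, while the median log2 difference moved by at most 0.44. With the total over the listed genes set equal in the 4 libraries, the differences went to 0.19 for *S100a8* and 0.15 for *S100a9*. Listed as higher were 117 of the 128 genes, and the sums over the 128 genes were 411504 and 614168 against 71972 and 121940 normalized counts. *Reg3b* alone held 170461 and 274783 of these in libraries 65 and 71, and 13676 and 13549 in libraries 67 and 68.

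**Figure D2:**
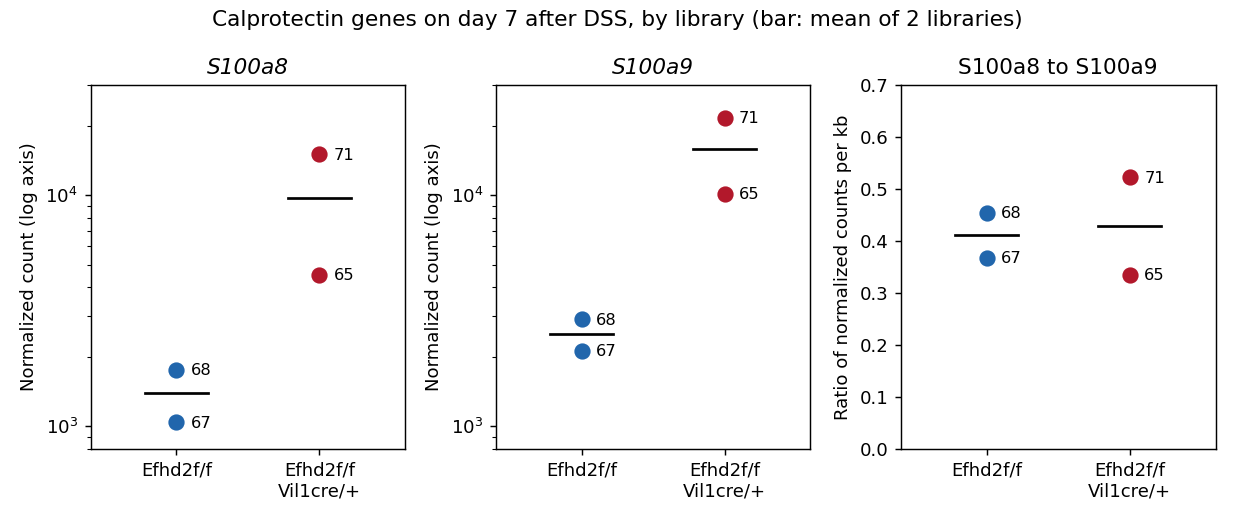
Normalized counts of *S100a8* and *S100a9* on a log axis, and the ratio of *S100a8* to *S100a9* per kb of exon on a linear axis, in the 4 libraries of day 7 by genotype. Points are libraries with their numbers, and bars are the means of 2 libraries. Both *Efhd2*-deficient libraries lie above both control libraries for each gene, while the ratios of the 2 genotypes overlap.

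The differences of *S100a8* and *S100a9* were close to the middle of the listed genes. They ranked 56 and 59 of 128 by log2 difference, where the median was 2.53. Their neighbours in that order were *Retnlg* (2.63) and *Fpr1* (2.62) above *S100a8*, *Mrgpra2b* (2.59) and *Timp1* (2.59) between the 2 genes, and 9130204K15Rik (2.57) and *Gm5483* (2.56) below *S100a9*. *Retnlg* encodes a resistin-like protein of neutrophils, *Fpr1* a receptor for formylated peptides and *Timp1* an inhibitor of metalloproteinases. These neighbouring differences lie within 1 SE of each other. By the difference between the genotype means in normalized counts, *S100a9* ranked 4 and *S100a8* ranked 7 of 128.

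Per kb of exon, the calprotectin genes were among the highest of the listed genes in both genotypes. *S100a9* was at 19452 and 41440 normalized counts per kb in libraries 65 and 71 and at 4071 and 5564 in libraries 67 and 68, and ranked 3 of 128 in each of the 4 libraries. *S100a8* was at 6508 and 21636 normalized counts per kb in libraries 65 and 71 and at 1496 and 2524 in libraries 67 and 68, with ranks of 6, 4, 7 and 5 in the same order. Averaged over the 4 libraries, only *Reg3b* (103430 normalized counts per kb) and *Reg3g* (19388), which encode antimicrobial lectins of the gut epithelium, stood above *S100a9* (17632). The means of *Reg3g* and *S100a9* differed by less than the spread between libraries, and so did those of *S100a8* (8041) and *Cyp2c55* (7984), which was listed as lower in *Efhd2*-deficient IECs. *Cd14*, at 5067 normalized counts per kb, and the chemokine gene *Cxcl2*, at 3730, came next. Genes that were not listed are not in this order.

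**Figure D3:**
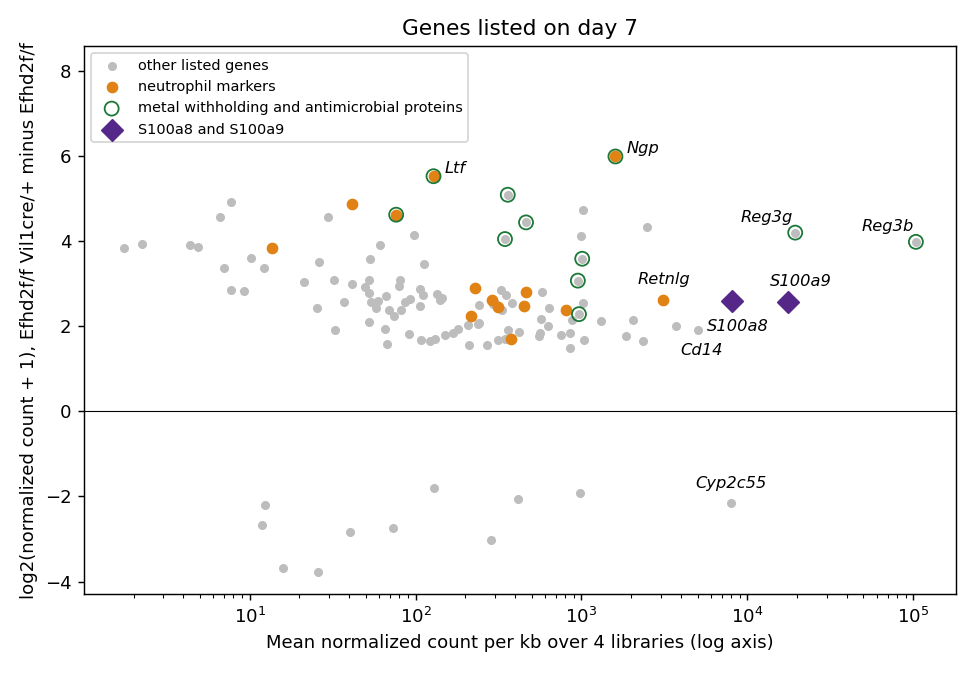
Each of the 128 listed genes of day 7 by its mean normalized count per kb of exon over 4 libraries (log axis) and its difference in log2(normalized count + 1) between *Efhd2*-deficient and control IECs. *S100a8* and *S100a9* (purple) lie near the median difference of 2.53 but at the right end of the level axis, with *Reg3b* and *Reg3g*.

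Calprotectin pairs 1 S100A8 with 1 S100A9, and the transcripts were compared within each library. The ratio of *S100a8* to *S100a9* in normalized counts was 0.445 in library 65 and 0.694 in library 71, and 0.489 in library 67 and 0.603 in library 68. *S100a9* was thus the higher gene in all 4 libraries, and the ratios of the 2 genotypes overlapped. The log2 ratio was -0.85 ± 0.45 in *Efhd2*-deficient IECs and -0.88 ± 0.21 in control IECs (SD, n = 2), a difference of 0.03 (SE 0.36). A two-sided exact permutation test gave p = 1, but 2 against 2 libraries cannot go below 0.333, so this test could not have called a difference of any size. In each genotype the library with more of both genes, 71 or 68, had the larger share of *S100a8*.

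Per kb the ratio was 0.335, 0.522, 0.367 and 0.454 in libraries 65, 71, 67 and 68. The length of 694 bp used for *S100a8* includes a transcript with a retained intron, and its coding transcript has 486 bp, against 522 and 512 bp in *S100a9*. With the coding transcripts, a choice made after the values had been seen, the ratio per kb was 0.469, 0.731, 0.515 and 0.635 in the same order. *S100a9* stayed above *S100a8* in all 4 libraries with either length.

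The sum of the 2 genes was 14670 and 36647 normalized counts in libraries 65 and 71 and 3163 and 4656 in libraries 67 and 68. This was 3.57% and 5.97% of the sum over all listed genes in the *Efhd2*-deficient libraries and 4.39% and 3.82% in the control libraries, and these shares overlap. Without the genes whose names begin with Reg3, which held a large part of the sums, the shares were 8.08% and 15.2% against 5.90% and 4.45%. The shares are of the listed genes and not of the transcriptome.

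Between the 2 *Efhd2*-deficient libraries, calprotectin had a larger ratio than most listed genes. The ratio of library 71 to library 65, 3.32 for *S100a8* and 2.13 for *S100a9*, ranked 17 and 32 of the 127 genes with a value above 0 in library 65, and the median over the listed genes was 1.26. Of the 128 genes, 83 were higher in library 71 than in library 65. Between the control libraries the ratio of library 68 to library 67 was 1.69 for *S100a8* and 1.37 for *S100a9*, below the median of 1.88. With library 71 left out the log2 differences were 1.74 for *S100a8* and 2.03 for *S100a9*, and with library 65 left out they were 3.48 and 3.12.

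**Figure D4:**
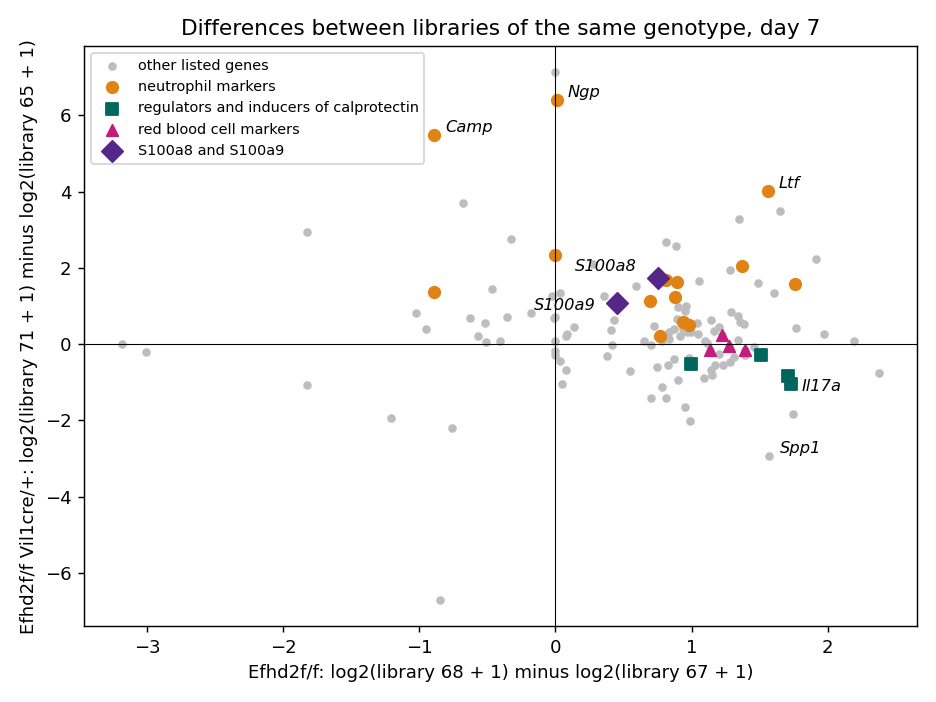
Difference in log2(normalized count + 1) between the 2 *Efhd2*-deficient libraries (71 minus 65, vertical axis) against that between the 2 control libraries (68 minus 67, horizontal axis) for the listed genes of day 7. *S100a8* and *S100a9* and all 14 listed neutrophil markers lie above 0 on the vertical axis, and the 4 listed regulators and inducers of calprotectin lie below it. In all, 83 of the 128 listed genes were higher in library 71 than in library 65.

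Among genes for receptors and partners of calprotectin, 1 of 15 was listed on day 7. *Cd14*, which encodes a co-receptor of TLR4, was at 11964 and 13046 normalized counts in libraries 65 and 71 and 2458 and 4394 in libraries 67 and 68. Its log2 difference was 1.93, and limma called it higher, beside 77.3% of all listed genes. It was not called with equal sums over the listed genes, nor with only genes averaging at least 50 normalized counts. Unlike calprotectin it was nearly level between the *Efhd2*-deficient libraries, with a ratio of 1.09. Not listed were *Tlr4*, its partner *Ly96*, the adaptor *Myd88*, *Ager* (which encodes RAGE), *Itgam* and *Itgb2*, and the subunits of the NADPH oxidase of phagocytes.

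Of 16 genes for factors known to regulate or induce calprotectin, 4 were listed on day 7, and limma called 3 of them higher, with a median log2 difference of 2.99 against 2.53 over all listed genes, of which 77.3% were called higher. With equal sums over the listed genes 0 of the 4 were called. *Il17a*, the cytokine gene of type 17 lymphocytes, was at 77.3 and 37.0 normalized counts in libraries 65 and 71 and 1.61 and 7.65 in libraries 67 and 68 (log2 difference 3.52, called). *Csf3*, which encodes the granulocyte growth factor G-CSF, was at 319 and 260 against 14.5 and 43.0 (3.47, called). *Il1a* was at 1241 and 695 against 88.7 and 292 (2.52, called). *Osm*, for oncostatin M, was at 1401 and 969 against 251.2 and 503 (1.71, not called). The groups did not overlap for these 4 cytokine genes, as for 90.6% of the listed genes. Each of the 4 was lower in library 71 than in library 65, opposite to calprotectin, while 83 of all 128 listed genes were higher in library 71. Genes for the C/EBP factors, *Spi1* (PU.1), *Stat3*, *Nfkbiz*, *Il1b*, *Il6*, *Il22*, *Tnf* and *Ifng* were not listed on day 7. On day 0 *Cebpb* alone of the 16 was listed, at 355 and 372 normalized counts in *Efhd2*-deficient IECs and 128 and 164 in control IECs.

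Of 22 genes for other proteins that withhold metals or act on microbes, 11 were listed on day 7 and limma called all 11 higher, beside 77.3% of all listed genes, with a median log2 difference of 4.21 against 2.53. With equal sums over the listed genes 0 of the 11 were called. *Lcn2*, whose product lipocalin 2 binds bacterial siderophores, was at 2356 and 7498 normalized counts in libraries 65 and 71 and 241 and 501 in libraries 67 and 68 (log2 difference 3.59). Its ratio of library 71 to library 65 was 3.18, close to that of *S100a8*. *Ltf*, for the iron-binding protein lactoferrin, was at 102 and 1651 against 4.17 and 14.3 (5.53). *Nos2*, for the inducible nitric oxide synthase, was at 6100 and 1724 against 80.1 and 271 (4.45), so that library 65 was the higher one. The others of the 11 were *Reg3b* (3.99), *Reg3g* (4.21), *Reg3a* (4.06), *Reg3d* (5.10), *Saa3* (3.08), *Hp* (2.29), *Ngp* (6.0) and *Camp* (4.63). *Reg3a* was at 102 and 999 in libraries 65 and 71 and *Reg3d* at 78.4 and 1031, so their differences rest largely on library 71. *Ngp*, *Ltf* and *Camp* are also among the neutrophil markers below. All but *Hp* had a larger log2 difference than *S100a8* and *S100a9*. Higher in library 71 than in library 65 were 9 of the 11, as were calprotectin and 83 of all 128 listed genes. On day 0 the listed genes of this group were *Mt1* for metallothionein 1, at 6128 and 7681 against 1167 and 1322 normalized counts, and, lower in *Efhd2*-deficient IECs, *Duox2* (log2 difference -1.22), *Saa3* (-1.46) and *Nos2* (-2.05).

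Of 28 neutrophil markers other than calprotectin, 14 were listed on day 7, all 14 as higher in *Efhd2*-deficient IECs, and limma called 13 of them, with a median log2 difference of 2.72. Over all listed genes 117 of 128 were higher, 77.3% were called higher and the median was 2.53, so the markers lay near the list as a whole. With equal sums over the listed genes 1 of them was called. Their summed level was 7248 and 27534 normalized counts in libraries 65 and 71 and 1442 and 3132 in libraries 67 and 68. The sum of *S100a8* and *S100a9* was 2.02 and 1.33 times that of the markers in libraries 65 and 71 and 2.19 and 1.49 times in libraries 67 and 68. These ratios overlap between the genotypes, and within each genotype the library with the larger sum of markers had the smaller ratio. The marker sums include *Ngp*, at 90.6 in library 65 and 7712 in library 71, and *Ltf*, at 102 and 1651. A sum without these genes was not taken, so the fall of the ratio in library 71 is not a trait of all the markers. In bulk RNA, more cells of a type and more RNA per cell cannot be told apart, and the part of neutrophils in the level of calprotectin was not tested.

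*Mmp9*, for gelatinase B, was at 1346 and 4138 normalized counts in libraries 65 and 71 and 312 and 579 in libraries 67 and 68 (log2 difference 2.47). *Mmp8*, for neutrophil collagenase, was at 776 and 3216 against 139 and 361 (2.81). *Retnlg* was at 1586 and 4714 against 240 and 813 (2.63). These 3 genes, which neutrophils express as they mature, had ratios of library 71 to library 65 of 3.07, 4.14 and 2.97, against 3.32 for *S100a8* and 2.13 for *S100a9*. All 14 listed markers were higher in library 71 than in library 65, as were 83 of all 128 listed genes, and 11 of the 14 were higher in library 68 than in library 67, as were 99 of the 128.

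*Ngp*, for neutrophilic granule protein, was at 90.6 and 7712 normalized counts in libraries 65 and 71 and 12.1 and 12.2 in libraries 67 and 68 (6.0), so that library 71 held 85.1 times as much as library 65, against 3.32 times for *S100a8*. *Camp*, for the cathelicidin, was at 4.11 and 227 in libraries 65 and 71 and below 1 in both control libraries, and *Ltf* is given above. *Stfa2*, a stefin gene with near-identical copies among which reads can be split, was at 12.2 and 65.7 in libraries 65 and 71 and at 0 in libraries 67 and 68. Among the neutrophil markers that were not listed were *Ly6g*, *Csf3r*, *Cxcr2*, *Mpo*, *Elane*, *Prtn3* and *Ctsg*. No neutrophil marker was listed on day 0.

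Of 20 markers of monocytes and macrophages, which also express calprotectin, 6 were listed on day 7 and limma called all 6 higher, with a median log2 difference of 2.73, beside 77.3% and 2.53 over all listed genes. With equal sums over the listed genes 0 of the 6 were called. Their summed level was 15817 and 24178 normalized counts in libraries 65 and 71 and 2813 and 5394 in libraries 67 and 68. *Cd14* made up most of it, and without *Cd14* the sum was 3853 and 11132 in libraries 65 and 71 and 355 and 999.8 in libraries 67 and 68, so that library 71 held 2.89 times as much as library 65. *Chil3*, for a chitinase-like protein, was at 1082 and 5053 against 68 and 259 (4.13). *F13a1*, for a subunit of coagulation factor XIII, was at 347 and 878 against 44.7 and 138 (2.79). The log2 differences of *Ifitm6* and *Fn1*, for fibronectin, were 4.74 and 2.38, and that of *Cd14* is given above. *Spp1*, for osteopontin, went the other way within *Efhd2*-deficient IECs, at 755 in library 65 and 97.6 in library 71, against 24 and 72.9 (2.67). *Lyz2*, *Adgre1*, *Csf1r*, *Ccr2* and *Ly6c2* were not listed. The part of these cells in the level of calprotectin was not tested.

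Of 7 red blood cell markers, 4 were listed on day 7 and limma called all 4 higher, with a median log2 difference of 2.28, below the 2.53 of all listed genes, of which 77.3% were called. With equal sums over the listed genes 0 of the 4 were called. Their summed level was 4139 and 3992 normalized counts in libraries 65 and 71 and 562 and 1344 in libraries 67 and 68. It was thus about level between the *Efhd2*-deficient libraries, where calprotectin differed. Of 6 markers of stroma and endothelium, only *Vim*, for vimentin, was listed (1.67, not called). None of 13 lymphocyte markers was listed on day 7. Immunoglobulin genes outside that set were listed, as higher in *Efhd2*-deficient IECs. They were *Ighg2c* (4.15), *Ighv1-34* (4.58), *Ighv1-18* (2.76), *Igkv4-61* (3.09), *Igkv4-74* (2.75), *Igkv10-96* (2.49) and *Igkv12-46* (3.09). *Ighv1-18* differed about as much within a genotype, with library 71 above library 65 by 2.77 on the log2 scale. That was the largest such difference among these immunoglobulin genes, whose levels are not given here. On day 0, 6 lymphocyte markers were listed, all as lower in *Efhd2*-deficient IECs. Markers of other cells were also listed as lower that day. They were *Dcn* (-1.73) and *Pecam1* (-1.13) of stroma and endothelium, *Spp1* (-2.85) and the epithelial marker *Aqp8* (-1.15). The red blood cell marker *Alas2* was higher (1.49). The share of lower genes among all genes listed on day 0 was not counted.

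The genes most like calprotectin over the 4 libraries were found by centring log2(normalized count + 1) of each gene on its own mean and taking the root mean square difference from the mean of *S100a8* and *S100a9*. The 89 listed genes that averaged 100 or more normalized counts entered. The listing had already selected genes that differ between the genotypes, so part of any likeness comes from the choice of genes. The 10 nearest were *Fpr1* (0.10), *Lrg1* (0.13), *Asprv1* (0.14), *Mmp9* (0.14), *Mmp19* (0.29), *Alox5ap* (0.32), *Wfdc21* (0.33), *Fn1* (0.37), *Mmp8* (0.37) and *F13a1* (0.37), against a median of 0.63. *Fpr1*, *Asprv1*, *Mmp9* and *Mmp8* are among the neutrophil markers and *Fn1* and *F13a1* among the monocyte and macrophage markers. The other neutrophil markers that entered were spread over the 89 ranks, with *Fpr2* at 11, *Retnlg* at 12, *Wfdc17* at 15, *Trem1* at 31, *Ltf* at 80 and *Ngp* at 84. So were those of monocytes and macrophages, with *Cd14* at 34, *Chil3* at 69, *Ifitm6* at 75 and *Spp1* at 79. *Alox5ap* encodes an activator of leukotriene synthesis.

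*Fpr1* was at 413 and 909 normalized counts in libraries 65 and 71 and 77.6 and 126 in libraries 67 and 68, with a log2 difference of 2.62. *Lrg1*, for a secreted leucine-rich glycoprotein, was at 902 and 2167 against 229 and 294 (2.43). *Asprv1*, for an aspartic protease, was at 397 and 1275 against 97.5 and 172 (2.45). In these genes, as in calprotectin, the order of the libraries from the highest was 71, 65, 68 and 67, which 59 of the 128 listed genes had. The 2 calprotectin genes were 0.25 apart from each other by the same measure. *S100a9* was nearest to *Fpr1* (0.09) and *Lrg1* (0.10), with *S100a8* at rank 4, while *S100a8* was nearest to *Asprv1* (0.08) and *Mmp9* (0.09), with *S100a9* at rank 6. Genes with 4 values have few ways to differ, and this likeness is a description of 4 libraries.

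**Figure D5:**
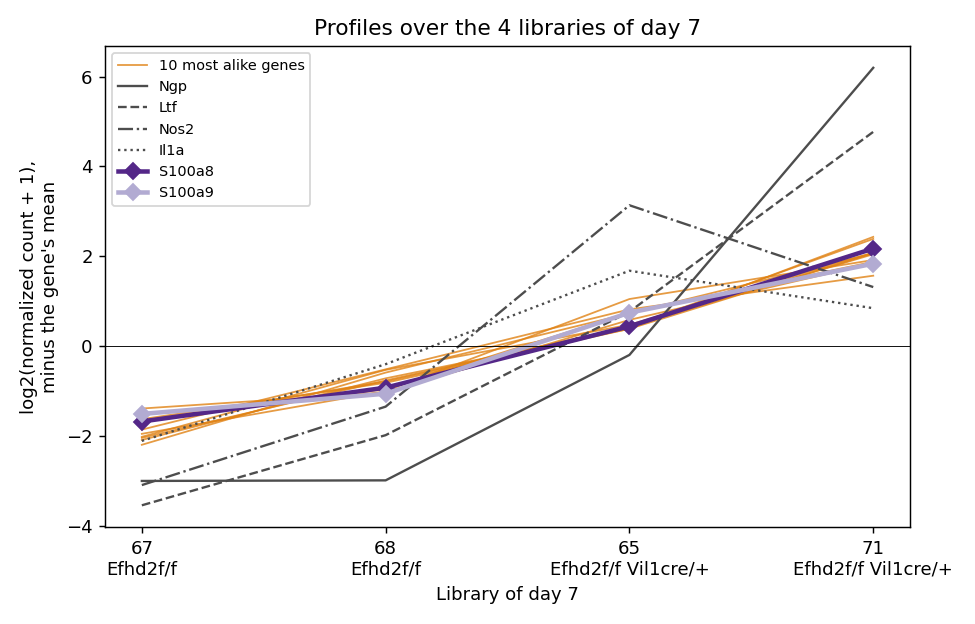
Centred log2(normalized count + 1) of *S100a8*, *S100a9*, the 10 most alike genes and 4 contrasting genes in the 4 libraries of day 7, where lines join the values of a gene and the order of the libraries has no meaning. *Ngp* and *Ltf* differ more between libraries 65 and 71 than calprotectin does, and *Nos2* and *Il1a* are higher in library 65.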

How the data were processed

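RNA was extracted from colonic IECs with TRIzol, and libraries made with a NEBNext Ultra kit were sequenced on an Illumina instrument. The authors deposited 1 table per day with the signal of each library, given as a normalized count per gene. How it was scaled is not given in the sources used here, and whole reads could not be recovered. The submitters' processing notes name CASAVA 1.8, fastp, HISAT2 2.0.5, featureCounts 1.5.0-p3 and DESeq2 1.20.0, with the builds GRCm38 and mm10. The tables hold only genes past the authors' own thresholds, an absolute log2 fold change of more than 1 with an adjusted p-value under 0.05, and the columns with these fold changes and p-values were not used. The tables of the 2 days were normalized separately and were not tested against each other. The gene coordinates of 126 of the 128 genes of day 7 were identical to GENCODE mouse release 21.

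Values under 1e-06 were set to 0 (14 on day 7 and 25 on day 0). Genotypes were compared on log2(value + 1), which understates differences of low genes, with limma 3.58.1 in R 4.3.3 over the 128 genes. A gene was called at an adjusted p-value under 0.05 and an absolute log2 difference above 1. The test was checked on simulated data with a dispersion of 0.05, where it recovered 195 of 200 changes and made 8 false calls. Its behaviour at the spread of these libraries, or on a list already selected for a difference, was not tested. Levels per kb used the exon length in the tables. Motifs were searched for on both strands in the RefSeq promoter windows of GRCm38.p6. The other steps used scipy 1.17.1, numpy 2.4.6 and pandas 2.3.3 in Python 3.11.15, and figures were drawn with matplotlib 3.10.9.

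Genotype and day were taken from the labels, and columns were matched to groups by name. The genes and the gene lists were chosen with earlier results of these data known. The genes named are *S100a8* and *S100a9*, the listed genes of the gene lists (up to 10 per list, by mean level), the 10 genes most alike over the libraries, and the neighbours in level or difference. *Stfa2* and *Camp* fall outside this rule as neutrophil markers and, with the unlisted genes and the immunoglobulin genes, were named after the values had been seen. Alternatives were pseudocounts of 0.1 and 10, the same total of listed genes in each library, only genes averaging at least 50 normalized counts, each library left out, and the length of the coding transcript. The depth of the libraries is unknown, and no counting error could be given.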

Additional observations from a re-analysis of the deposited data

Results flagged for a closer look

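3 genes of the lists were listed on both days with opposite directions, and the libraries of the genotypes did not overlap on either day. *Alas2*, also listed on both days, kept its direction, with a log2 difference of 2.39 on day 7 and 1.49 on day 0. On day 7, 116 of the 128 listed genes had both *Efhd2*-deficient libraries above both control libraries, and the share on day 0 was not counted. *Nos2* had a log2 difference of 4.45 on day 7 and -2.05 on day 0, where it was at 38.5 and 46.4 normalized counts in *Efhd2*-deficient IECs and 145 and 220 in control IECs. *Saa3* had a difference of 3.08 on day 7 and -1.46 on day 0, where it was at 167 and 92.4 against 347 and 340 normalized counts. *Spp1* had a difference of 2.67 on day 7 and -2.85 on day 0, where it was at 1.01 and 0 against 9.80 and 8.71 normalized counts, values near the bottom of the scale. The difference between the days was not tested, since the tables were normalized separately and each holds only genes selected for a difference. *S100a8* and *S100a9* have no value on day 0 to set beside these.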

How the results depend on the processing

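The differences of *S100a8* and *S100a9* kept their direction under every alternative tried for them. They stayed between 1.74 and 3.48 for *S100a8* and between 2.03 and 3.12 for *S100a9* when 1 library was left out, and pseudocounts of 0.1 and 10 moved neither by more than 0.01. Equal sums over the listed genes took them to 0.19 and 0.15, with a shift of the median of all listed genes of -2.41. By construction that scaling removes any change in the total of the listed genes. High genes weigh most in that total, and *Reg3b* and *Reg3g* held a large part of it in the *Efhd2*-deficient libraries. The scaled differences are therefore not a measure of what the listed genes share.

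The difference in the log2 ratio of *S100a8* to *S100a9* ranged from -0.29 without library 71 to 0.35 without library 65, and was -0.12 without library 67, so its sign is not settled. The length of the coding transcript, chosen after seeing the data, raised the ratio per kb in each library and left it below 1.

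The number of listed genes that limma called higher was 99 of the 128 tested, and it was 5 with equal sums. With a mean of at least 50 it was 65, where fewer genes were tested. The number called lower was 10, and it was 6 in that smaller set with a mean of at least 50. With any 1 of the 4 libraries left out, both counts were 0 (from 0 to 0). Fewer samples then enter the fit, the lone library of a genotype is assumed to vary like the other genotype, and the unadjusted p was under 0.05 for between 35 and 81 higher and between 1 and 7 lower genes, against 104 and 10 with all libraries. The calls within the gene lists were then 0 as well. A list of genes chosen on 2 against 2 libraries of unknown depth limits every value here.

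No paired analysis was possible because the columns carry library numbers and not the replicate numbers of the labels.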

Other observations

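*Cd33*, which encodes a receptor of myeloid cells that has been described as a partner of S100A9, was not on the lists of genes and was picked out after its values had been seen. It was at 1215 and 2444 normalized counts in libraries 65 and 71 and 353 and 687 in libraries 67 and 68 on day 7, a log2 difference of 1.8, and the order of the 4 libraries was that of *S100a8* and *S100a9*, which 59 of the 128 listed genes had. *Cyp2c55*, a cytochrome P450 gene whose mean level per kb was next to that of *S100a8*, was at 2186 and 2953 normalized counts per kb in libraries 65 and 71 and 6087 and 20709 in libraries 67 and 68. It ran opposite to calprotectin between the genotypes, and its control libraries did not agree closely with each other.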
